A study of Homo sapiens with 6 samples.

Results

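The genes described here are 10 human heterogeneous nuclear ribonucleoprotein (hnRNP) genes, HNRNPA1, HNRNPA2B1, HNRNPC, HNRNPD, HNRNPF, HNRNPH1, HNRNPK, HNRNPL, HNRNPM and HNRNPU. They were listed by name, by a rule that uses no measured value, though the list was chosen with earlier results of these data known. The genes are 10 of the 20098 protein-coding genes annotated on chromosomes 1 to 22 and X. DNA double-strand breaks (DSBs) were mapped by END-seq, in which an adapter is ligated to broken DNA ends inside agarose plugs, in HCT116 cells, an established human colorectal carcinoma line. Cells were left untreated (Ctrl) or received 10 µM camptothecin (CPT), which holds topoisomerase I in its covalent complex with DNA, for 10 min (CPT10) or 20 min (CPT20), with 2 biological replicates in each of the 3 groups and murine pre-B cells added to all of them as a spike-in. The treatment label of the CPT20 samples reads 20 µM, and their treatment protocol and the study's methods give 10 µM for 20 min, which is the reading used here. Each of the 4 treated libraries has peaks of the forward and of the reverse strand in separate lists, 8 in all. The untreated libraries entered only as the input of the authors' peak calling, so no background level measured in the same way is given, and the values below describe where peaks lay in treated cells and not an increase over untreated cells.

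The hnRNP proteins coat nascent transcripts of RNA polymerase II and act in splicing, polyadenylation, RNA export, mRNA stability and translation. Most bind RNA through RNA recognition motifs or KH domains, and many regulate the splicing of their own transcripts. Their genes are strongly expressed in most proliferating cells and several have ultraconserved or alternatively spliced stretches in their introns. Topoisomerase I removes the supercoils that form ahead of and behind a transcribing polymerase, and CPT blocks the resealing step of its reaction. No RNA levels of these cells were used here, so the relation of the values below to transcription in HCT116 was not tested.

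At a DSB, END-seq reads run away from both ends of the break, which gives a reverse-strand peak on the left and a forward-strand peak on the right. Each gene was given a window made of its hg19 gene body and 5 kb on each side. The 10 windows were 16.9 kb (HNRNPA1) to 70.4 kb (HNRNPC) wide and 360.6 kb in all. Peak density was the number of peaks of both strands overlapping a window, per kb and per 100000 peaks of the library. A site was a reverse peak joined to its closest forward peak, where the 2 peaks overlapped or the gap between them was under 150 bp. A site was replicated where sites of both replicates of a time overlapped by at least 1 bp. Overlapping replicated sites were merged into clusters, called persistent (replicated at both times), transient (replicated at 10 min and not at 20 min) or late (replicated at 20 min and not at 10 min). The study's classes of these names also required a read-count test against the control and removed blacklisted regions, and neither step was repeated here.

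The lists were of unequal length, from 575098 peaks in CPT20 replicate 2 to 1418625 in CPT10 replicate 1. The 10 windows held 459 and 349 peaks in the CPT10 libraries and 416 and 282 in the CPT20 libraries. In CPT20 replicate 2 these were 0.0490% of the list (95% Wilson interval 0.0436 to 0.0551%), against 0.0324 to 0.0340% in the other libraries. That library had the shortest list and the highest share of it in the hnRNP genes, and values averaged over the libraries rest on it in part. The intervals cover counting error only, because PCR duplicates were kept and neighbouring peaks are not independent.

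Peaks were denser over each of the 10 hnRNP windows than over the typical protein-coding gene. The typical gene was the median of the 17931 genes with a mean of at least 5 peaks, and its density was 0.0375 to 0.0475 peaks per kb per 100000 peaks. Averaged over the 4 libraries, the windows lay between 1.61-fold (HNRNPM) and 3.19-fold (HNRNPU) above it, and all 10 passed the test (limma, adjusted p 0.00441 to 0.0237), beside 16.5% of all genes tested that were called higher. The median of the members was 1.35 on the log2 scale and the median over all genes tested was -0.03. Without CPT20 replicate 2 the log2 value of every member was lower, with a median of 1.15 and a value of 1.40 for HNRNPU. All 10 members were above their library's median gene in each of the 4 libraries, a pattern seen in 24.5% of the genes tested. Their percentile among the genes tested was lowest for HNRNPH1 in CPT10 replicate 1 (67.6) and highest for HNRNPU in CPT10 replicate 2 (99.9).

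**Figure D1:**
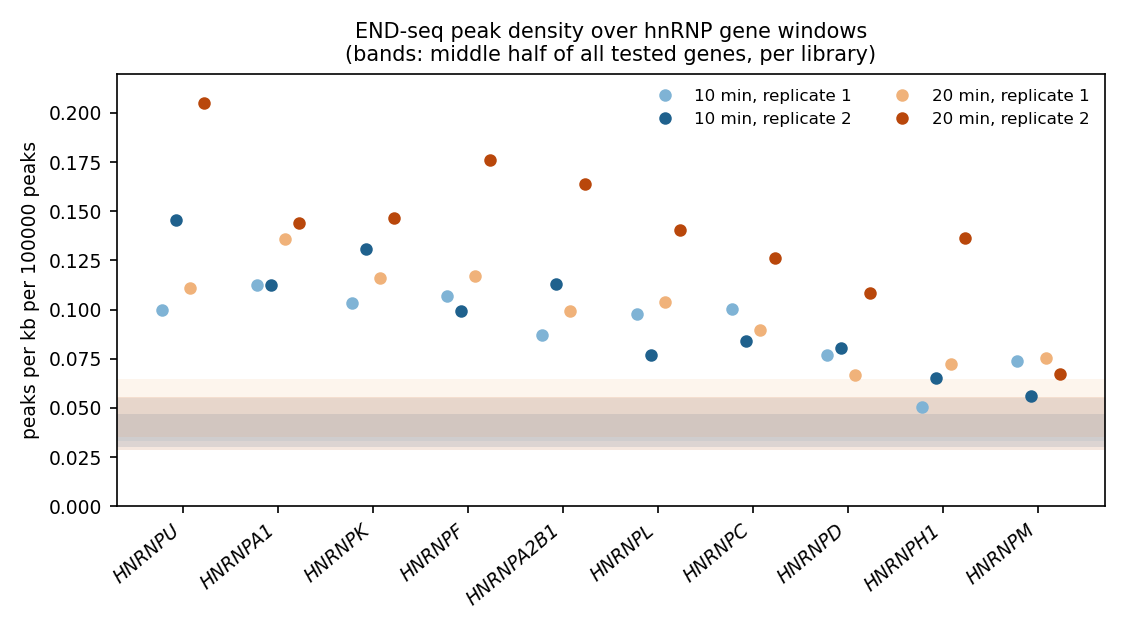
Peak density (peaks per kb of window per 100000 peaks of the library) of each hnRNP gene window in the 4 libraries, with genes ordered by their mean over libraries. Points are single libraries and bands span the first to the third quartile of all 17931 tested genes in each library. HNRNPU in CPT20 replicate 2 was highest at 0.205 and HNRNPH1 in CPT10 replicate 1 lowest at 0.0507.

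The comparison was also made with the surroundings of each gene, as the density of the window over that of the 500 kb on each side of it. This ratio was between 1.59 (HNRNPM in CPT20 replicate 1) and 6.37 (HNRNPU in CPT20 replicate 2) over all members and libraries. All 10 members were again called higher (limma, adjusted p 0.0297 to 0.0374), beside 8.77% of all genes. For HNRNPM and HNRNPU the call against the typical gene was lost without CPT10 replicate 1 (limma, adjusted p 0.0515 and 0.0531, with log2 values of 0.62 and 1.84), and for HNRNPM also with peaks of −log10 q of at least 10 (limma, adjusted p 0.116).

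HNRNPA1, HNRNPA2B1 and HNRNPD encode related proteins with a pair of RNA recognition motifs and a glycine-rich tail. HNRNPA1 represses exon inclusion and binds UAG-containing RNA, HNRNPA2B1 acts in splicing and RNA sorting, and HNRNPD, also known as AUF1, binds AU-rich elements and regulates mRNA decay. The HNRNPA1 window (chr12:54668977-54685872) held 12 forward and 15 reverse peaks in the first CPT10 library, 12 and 8 in the other, 15 and 13 in the first CPT20 library, and 8 and 6 in the other. Its density was 0.113 in each CPT10 library and 0.136 and 0.144 in the CPT20 libraries, which did not overlap. Relative to the median gene of each library the log2 values were 1.41 and 1.58 at 10 min and 1.5 and 1.86 at 20 min, which did. It was 3.01-fold above the typical gene (log2 1.59 ± 0.21, SE; limma, adjusted p = 0.00441).

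The HNRNPA2B1 window (chr7:26205771-26246149) held 50 and 48 peaks at 10 min and 49 and 38 at 20 min. Its density was 0.0873 and 0.113 at 10 min and 0.0993 and 0.164 at 20 min, which overlapped between the times. The HNRNPD window (chr4:83268651-83300656) held 35 and 27 peaks at 10 min and 26 and 20 at 20 min. These gave densities of 0.0771 and 0.0802 at 10 min and 0.0665 and 0.109 at 20 min, and CPT20 held both the lowest and the highest value. HNRNPA2B1 was 2.66-fold and HNRNPD 1.95-fold above the typical gene.

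HNRNPC encodes a protein that binds uridine tracts of nascent transcripts and packages pre-mRNA, and its gene is the longest of the 10. The HNRNPC window (chr14:21672295-21742653) held 100 and 62 peaks at 10 min and 77 and 51 at 20 min. Its density was 0.100 and 0.0838 at 10 min and 0.0896 and 0.126 at 20 min, with overlap between the times, and it was 2.33-fold above the typical gene.

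HNRNPF and HNRNPH1 encode related proteins that bind guanine tracts and regulate splice site choice. HNRNPF (window chr10:43876065-43909634) held 51 and 35 peaks at 10 min and 48 and 34 at 20 min. Its density was 0.107 and 0.0991 at 10 min and 0.117 and 0.176 at 20 min, without overlap, and the log2 values relative to the median gene (1.32 and 1.38, then 1.28 and 2.12) overlapped. HNRNPH1 (window chr5:179036179-179066785) held 22 and 21 peaks at 10 min and 27 and 24 at 20 min. The HNRNPH1 densities of 0.0507 and 0.0652 at 10 min were the lowest of the family in CPT10 replicate 1 and the next to lowest in CPT10 replicate 2, and at 20 min its densities were 0.0722 and 0.136. HNRNPF was 2.88-fold and HNRNPH1 1.81-fold above the typical gene, the latter with the highest adjusted p of the 10 (0.0237, limma).

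HNRNPK binds cytidine-rich RNA and DNA through KH domains, HNRNPL binds CA repeats and regulates splicing, and HNRNPM acts in alternative splicing through GU-rich sites. HNRNPK (window chr9:86577998-86600546) had densities of 0.103 and 0.131 at 10 min and 0.116 and 0.147 at 20 min, from 33, 31, 32 and 19 peaks. HNRNPL (window chr19:39322010-39347987) had densities of 0.0977 and 0.0769 at 10 min and 0.104 and 0.141 at 20 min, from 36, 21, 33 and 21 peaks. The times overlapped for HNRNPK and did not for HNRNPL, whose log2 values relative to the median gene (1.20 and 1.03, then 1.12 and 1.81) did overlap. HNRNPM (window chr19:8504651-8558998) had 57 and 32 peaks at 10 min and 50 and 21 at 20 min, at densities of 0.0739, 0.0560, 0.0753 and 0.0672. HNRNPM thus had the lowest mean of the 10 although its window is the second widest, with 1.61-fold against 2.94-fold for HNRNPK and 2.44-fold for HNRNPL.

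HNRNPU, also called scaffold attachment factor A, binds chromatin-associated RNA and DNA and is part of the nuclear matrix. Its window (chr1:244998940-245032862) held 28 forward and 20 reverse peaks in the first CPT10 library and 29 and 23 in the other, and at 20 min it held 27 and 19, and 19 and 21. The densities were 0.0997 and 0.146 at 10 min and 0.111 and 0.205 at 20 min. With a log2 value of 1.67 ± 0.27 (SE; limma, adjusted p = 0.00466), HNRNPU ranked 29 among the 17931 genes.

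The windows also take in neighbouring genes. That of HNRNPA2B1 holds parts of NFE2L3, a transcription factor gene whose body overlaps the HNRNPA2B1 record, and of CBX3, which encodes a heterochromatin protein. That of HNRNPU holds COX20, which encodes a cytochrome c oxidase assembly factor, and those of HNRNPA1, HNRNPH1, HNRNPK, HNRNPL and HNRNPM reach CBX5, RUFY1, RMI1, ECH1 and PRAM1. With the canonical transcript and 5 kb on each side in place of the gene record, an alternative chosen after the data were seen, all 10 members were still called higher. Their order changed. HNRNPA2B1 was then highest, with a log2 value of 1.92 against 1.41 with the gene record, and HNRNPU had 1.47 against 1.67. HNRNPH1 had 1.29 against 0.85, and HNRNPM remained lowest at 0.67.

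Replicated sites lay in every one of the 10 windows, 43 clusters in all, of which 12 were persistent, 18 transient and 13 late. At 10 min 9 of the 10 genes had a replicated site, all but HNRNPL, beside 11.5% of all protein-coding genes and 10.6% of the 10466 genes with windows as wide as those of the members. At 20 min 9 of 10 had a replicated site, all but HNRNPM, beside 11% of all protein-coding genes and 11.8% of those with windows of that width. A persistent cluster was present in 7 of 10 (HNRNPA1, HNRNPA2B1, HNRNPC, HNRNPF, HNRNPH1, HNRNPK and HNRNPU), beside 3.81% of all protein-coding genes and 4.13% of those with windows of that width. These counts carry no p-value.

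The number of genes with a persistent cluster depended on how strictly sites were defined. It was 3 with peaks of −log10 q of at least 3 (HNRNPA1, HNRNPA2B1 and HNRNPK, beside 2.85% of all genes). HNRNPA1 alone remained with −log10 q of at least 10 (beside 0.542%) or when replicate sites had to share 50% of both lengths (beside 1.04%). With the strand order of a pair swapped, so that a forward peak came first, an alternative chosen after the data were seen, the same 7 genes held a persistent cluster, with 9 clusters in place of 12, beside 2.99% of all genes. The same 9 genes had a replicated site at 10 min, with 33 replicated sites under either order, beside 10.5% of all genes. At 20 min the same 9 genes had one, with 23 replicated sites in place of 30, beside 9.5%. The counts of genes with a replicated site thus did not depend on the order of a break. Among neighbouring peaks of opposite strands that did not overlap and were less than 150 bp apart, the order of a break, reverse then forward, was found 83 times in the hnRNP windows over the 4 libraries, and the opposite order 55 times, a ratio of 1.51 against 1.05 over all of the chromosomes. The ratio within the hnRNP windows was 0.808 in CPT10 replicate 1 and 1.79 to 2.5 in the other libraries, so CPT10 replicate 1 ran against the rest.

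**Figure D2:**
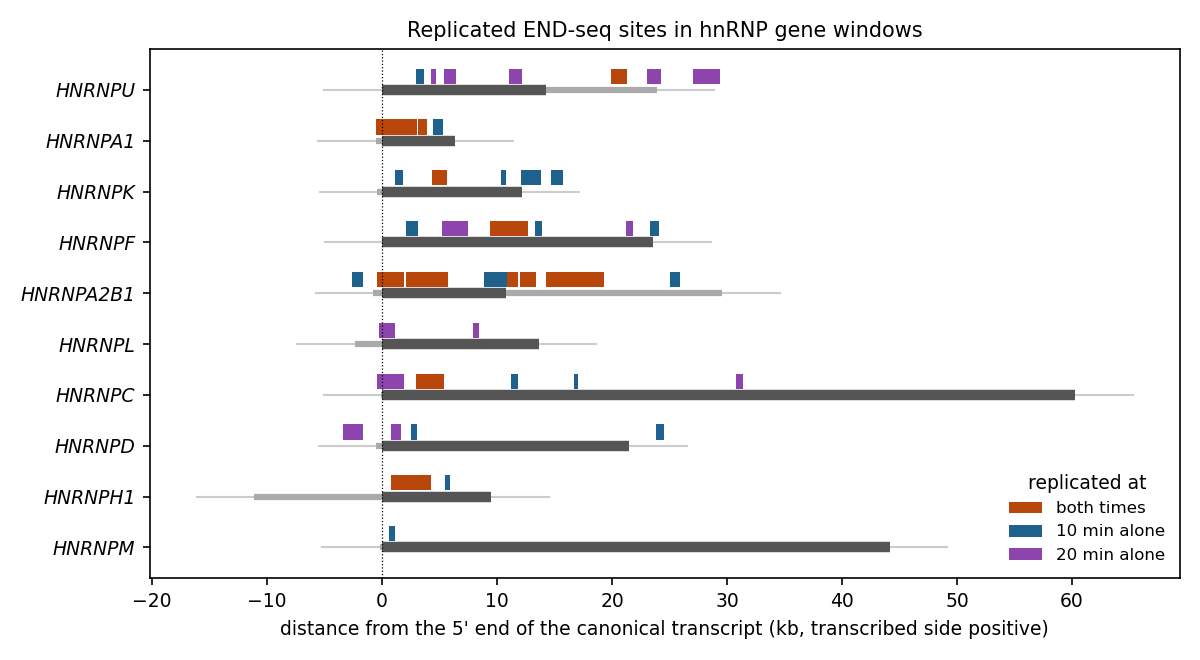
Replicated END-seq sites of the 10 hnRNP windows by distance in kb from the 5′ end of the canonical transcript, with the transcribed side positive. Thin lines are windows, grey bars gene records and dark bars canonical transcripts, and coloured blocks are clusters replicated at both times (12), at 10 min and not 20 min (18) or at 20 min and not 10 min (13). HNRNPA1 and HNRNPA2B1 carried persistent clusters across their 5′ ends, and 2 of the 43 clusters had their midpoint upstream of the 5′ end.

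HNRNPA1 carried the persistent cluster whose lowest value over the 4 libraries was the highest of the family. It spanned chr12:54674012-54677540, a 3529 bp stretch from just upstream of the 5′ end into intron 8. A site was given the smaller −log10 q of its 2 peaks, and the best site of this cluster in each library had 32.6 and 24.5 at 10 min and 56.0 and 39.6 at 20 min. A second persistent cluster followed at chr12:54677642-54678459, over exons 9 and 10 and the start of the last exon, with 12.9 and 7.39 at 10 min and 12.9 and 12.0 at 20 min. A transient cluster in the 3′ untranslated exon had 11.1 and 5.50 at 10 min and 14.2 in CPT20 replicate 1, and no site in CPT20 replicate 2. Sites of all 4 libraries covered 2750 bases of the first cluster.

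Parts of the stretches that sites of all 4 libraries shared are printed for HNRNPA1 and HNRNPA2B1, since these bases lay in a site of every library. They are read in the direction of transcription from the hg19 reference, capitals mark bases inside sites of all 4 libraries and small letters are flanking bases, and of a stretch only its longest run outside the untranslated regions of all annotated transcripts is shown, where it has one within the canonical transcript. For HNRNPA1 these are 292 of 1578 bases and 229 of 1172 bases, from 2 of its 3 stretches. The first HNRNPA1 run is intron 2 from end to end (chr12:54675287-54675578, plus strand), and the second runs from intron 5 through exon 6, which codes for part of the glycine-rich tail, into intron 6 (chr12:54676271-54676499, plus strand).
HNRNPA1 intron 2: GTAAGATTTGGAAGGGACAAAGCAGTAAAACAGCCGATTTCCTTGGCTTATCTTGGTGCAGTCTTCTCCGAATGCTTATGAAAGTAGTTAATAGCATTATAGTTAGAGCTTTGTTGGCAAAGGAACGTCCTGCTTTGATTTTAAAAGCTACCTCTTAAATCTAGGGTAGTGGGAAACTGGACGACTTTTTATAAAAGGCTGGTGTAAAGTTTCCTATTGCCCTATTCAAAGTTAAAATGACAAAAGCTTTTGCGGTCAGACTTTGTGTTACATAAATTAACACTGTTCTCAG
HNRNPA1 exon 6: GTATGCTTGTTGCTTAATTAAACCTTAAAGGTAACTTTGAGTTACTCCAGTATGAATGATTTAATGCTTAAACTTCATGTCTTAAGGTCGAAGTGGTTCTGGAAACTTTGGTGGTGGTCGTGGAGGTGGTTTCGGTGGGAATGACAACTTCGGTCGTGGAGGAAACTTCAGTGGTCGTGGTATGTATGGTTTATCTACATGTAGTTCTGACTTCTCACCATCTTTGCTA

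HNRNPA2B1 had 5 persistent clusters, the most of the 10 genes. At its 5′ end, chr7:26238477-26240817 reached 2.56 and 10.7 at 10 min and 11.8 and 7.70 at 20 min, and chr7:26234610-26238255, in the first introns and coding exons, reached 11.1 and 8.48 at 10 min and 8.92 and 7.67 at 20 min. The second of these had nearly equal values in all 4 libraries. The other 3 lay beyond the end of the canonical transcript, in the extended part of the gene record. The largest of them, chr7:26221083-26226063, is inside the body of NFE2L3 and had 67.4 and 62.5 in replicate 1 of the 2 times against 9.51 and 6.73 in replicate 2. A transient cluster at chr7:26242049-26242969 had its midpoint in CBX3, at -2143 bases from the HNRNPA2B1 5′ end. The HNRNPA2B1 window held 6 stretches shared by all 4 libraries, of which 4 lay past the canonical transcript. Of the other 2, that at chr7:26239123-26239378 lies in untranslated regions of other transcripts, and that in intron 1 is printed (chr7:26237636-26237846, minus strand).
HNRNPA2B1 intron 1: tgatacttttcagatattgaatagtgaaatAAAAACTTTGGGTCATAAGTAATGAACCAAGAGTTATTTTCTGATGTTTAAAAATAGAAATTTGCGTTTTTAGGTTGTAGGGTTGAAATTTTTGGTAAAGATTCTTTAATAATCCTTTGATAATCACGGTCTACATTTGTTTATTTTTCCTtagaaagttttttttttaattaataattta

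HNRNPC had a persistent cluster 4156 bases from the 5′ end in an intron (chr14:21732206-21734684), with 11.1 and 2.21 at 10 min and 16.4 and 8.69 at 20 min. A late cluster lay at its 5′ end and another late and 2 transient clusters lay further along the gene. No base of the persistent cluster was shared by sites of all 4 libraries, which also held for the persistent clusters of HNRNPK and HNRNPU. The HNRNPK cluster (chr9:86589492-86590757) had 12.1 and 4.57 at 10 min and 6.0 and 4.07 at 20 min and had 4 transient clusters around it. The HNRNPU cluster (chr1:245006544-245007972) had 14.2 and 2.95 at 10 min and 24.9 and 4.90 at 20 min. It lay 20587 bases from the 5′ end, inside the body of COX20 and past the end of the canonical HNRNPU transcript. With the canonical transcript alone 6 members thus had a persistent cluster, beside 2.67% of all genes. Inside the HNRNPU transcript 3 late clusters and 1 transient cluster were found.

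HNRNPF had a persistent cluster within its long first intron at chr10:43891924-43895206, with 24.7 and 2.95 at 10 min and 27.9 and 7.70 at 20 min. The HNRNPH1 cluster at chr5:179046453-179049885 began within the first kb of the transcript and had 5.57 and 6.40 at 10 min and 16.4 and 13.3 at 20 min. For HNRNPH1 both CPT20 values were above both CPT10 values, as for the first HNRNPA1 cluster, although −log10 q also moves with the depth of a library. The HNRNPA2B1 cluster at chr7:26228504-26229535 did the same (6.42 and 3.72, then 14.2 and 7.70), and the times overlapped in the other persistent clusters.

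The G and C shares of the shared stretches of the 2 genes overlapped. The 3 HNRNPA1 stretches had 47.0, 43.2 and 34.6%, against 44.2% over the window. The 6 HNRNPA2B1 stretches had 45.9, 34.0, 42.1, 36.7, 27.2 and 44.9%, against 42.2% over the window, and the printed one was the lowest of them. Their lengths also overlapped, with 410 to 1578 bases in HNRNPA1 and 121 to 639 bases in HNRNPA2B1.

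HNRNPD, HNRNPL and HNRNPM had no persistent cluster. In HNRNPD 2 transient and 2 late clusters were found at separate places, the first of them by its lowest value being chr4:83292089-83292661 with 7.17 and 4.57 at 10 min and 3.31 in CPT20 replicate 2. HNRNPL had a late cluster across its 5′ end (chr19:39339458-39340866) with 5.26 and 5.81 at 20 min and 4.57 in CPT10 replicate 2, and a late cluster at chr19:39332187-39332711 with 5.26 and 6.73 at 20 min and 10.9 in CPT10 replicate 1. Each of these 2 clusters thus had a site in all but 1 library. HNRNPM had a single transient cluster 856 bases from its 5′ end (chr19:8510458-8510971) with 4.76 and 4.57 at 10 min, 12.9 in CPT20 replicate 1 and no site in CPT20 replicate 2. Over the 10 genes, 12 of the 18 transient clusters had a site in 1 of the CPT20 libraries and 9 of the 13 late clusters a site in a CPT10 library or both, so the classes of these clusters often rest on a single library.

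**Figure D3:**
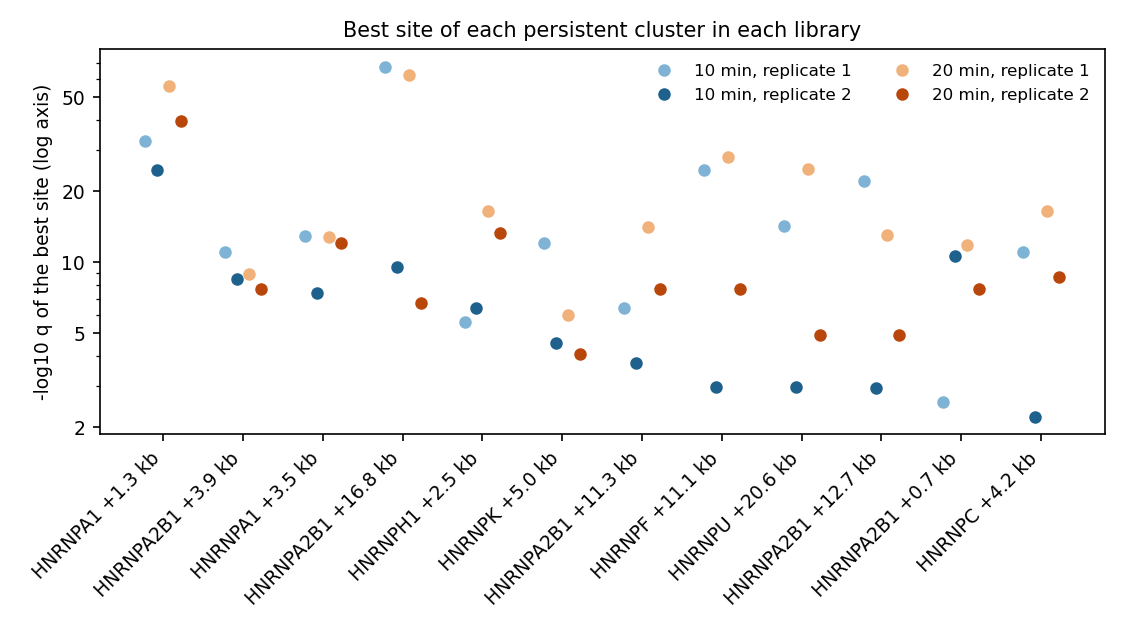
The −log10 q of the best site (log axis) of each of the 12 persistent clusters in the 4 libraries, named by gene and distance of the midpoint from the 5′ end. Points are single libraries. The HNRNPA1 cluster 1.3 kb from the 5′ end was above 24 in all 4 libraries, and the HNRNPA2B1 cluster at 16.8 kb ranged from 6.73 to 67.4.

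Peaks were more frequent on the transcribed side of the 5′ ends than upstream. The summits within 5 kb of the 5′ end of the 10 canonical transcripts numbered 90 downstream and 38 upstream, and 80 and 32, in the CPT10 libraries. The CPT20 libraries had 77 and 50, and 64 and 28. The log2 ratio of downstream over upstream peaks, with 0.5 peaks added to both, was above 0 in 37 of the 40 gene and library values, and its mean was above 0 for all 10 genes. The matching counts over all genes were not taken, and the median gene was also above 0. None of them passed the test over the 8897 genes tested (limma, lowest adjusted p of the members 0.196), where 0% of all genes were called. At an unadjusted p under 0.05 it was 5 members (HNRNPC, HNRNPH1, HNRNPK, HNRNPL and HNRNPU) beside 1938 genes or 21.8% of those tested. The median of the members was 1.06 and that of all genes 0.40. The call depended on the peaks admitted, since with lists of equal length 3 members passed (HNRNPC, HNRNPK and HNRNPU, with log2 values of 2.42, 2.65 and 2.22) beside 10.5% of the genes tested that were higher downstream.

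The highest mean log2 ratio was that of HNRNPC at 1.96 ± 0.68 (SE), from 10 peaks downstream and 2 upstream, and 7 and 2, at 10 min and from 5 and 4, and 7 and 0, at 20 min. HNRNPK followed with 1.85 ± 0.55, from 9 and 1, 9 and 2, 9 and 2, and 6 and 3 peaks. The HNRNPC mean rests on CPT20 replicate 2 (7 and 0 peaks). Without that library it was 1.06, against 2.11 for HNRNPK. The 3 lowest were HNRNPD (0.27 ± 0.40), HNRNPA1 (0.69 ± 0.49) and HNRNPA2B1 (0.70 ± 0.42). Each of these 3 has the start of a gene on the opposite strand close upstream, HNRNPD-DT at 151 bases, CBX5 at 593 bases and CBX3 at 416 bases. HNRNPK has RMI1 at 583 bases and was among the highest, and the part of such neighbours in the ratio was not tested.

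**Figure D4:**
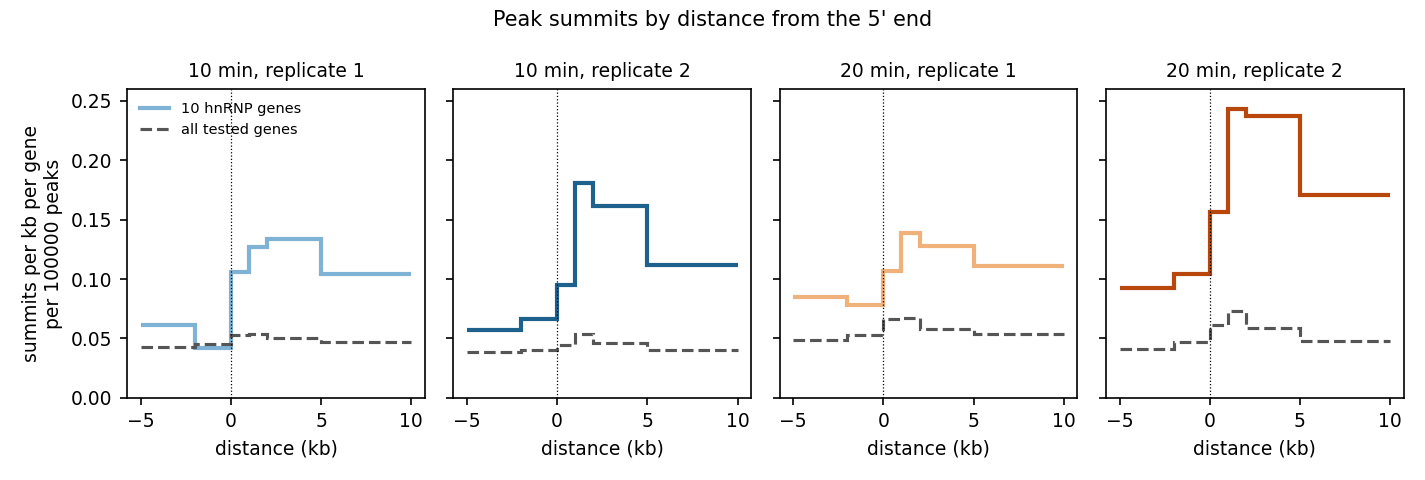
Peak summits per kb per gene and per 100000 peaks of the library by distance from the 5′ end of the canonical transcript, in bins from 5 kb upstream to 10 kb downstream, for the 10 hnRNP genes (coloured) and all tested genes (dashed). Each panel is 1 library. The hnRNP genes were highest between 1 and 5 kb downstream in every library, at 0.127 to 0.243 in the bin from 1 to 2 kb.

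The excess over other genes was larger between 2 and 5 kb downstream of the 5′ ends than in either upstream bin, in each of the 4 libraries. Between 2 and 5 kb downstream the hnRNP genes had 2.66 and 3.52 times the density of all tested genes at 10 min and 2.21 and 4.03 times at 20 min. In the 2 kb upstream the ratio was 0.935 and 1.66 at 10 min and 1.47 and 2.23 at 20 min, and from 5 to 2 kb upstream it was 1.44 and 1.49, then 1.73 and 2.24. In the first kb of the transcript it was 2.00 and 2.14 at 10 min and 1.60 and 2.55 at 20 min, so in CPT20 replicate 1 the first kb was below the bin from 5 to 2 kb upstream. From 5 to 10 kb downstream the ratio ranged from 2.08 (CPT20 replicate 1) to 3.54 (CPT20 replicate 2). In each of the 4 libraries that ratio was above the first kb and below the bin from 2 to 5 kb. The excess was thus not confined to the first 5 kb. Of the clusters, 16 of the 43 had their midpoint in the first 5 kb of the transcript, which makes up 13.9% of the windows, and 2 lay upstream, in 18.3% of the windows. Of the 12 persistent clusters 6 were in the first 5 kb and none upstream. The positions of clusters over all genes were not taken. Peaks of all tested genes were also denser downstream, at 0.0541 to 0.0734 over the libraries from 1 to 2 kb downstream. From 5 to 2 kb upstream they had 0.0382 to 0.0490.

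No difference between 10 and 20 min passed the test in any of the 10 members, and 0% of the 17931 genes were called in either direction (limma, adjusted p of the members 1.00), and at an unadjusted p under 0.05 it was none of the members and 583 genes or 3.25%. The log2 difference of 20 over 10 min, after centring each library on its median gene, ranged from -0.01 (HNRNPD) to 0.65 ± 0.43 (SE, HNRNPH1), with a median of 0.19 in the members and -0.01 in all genes. Both densities at 20 min were above both at 10 min in 4 members, HNRNPA1, HNRNPF, HNRNPH1 and HNRNPL, beside 23.1% of all genes. Relative to the median gene of each library this held for 0 of the 10, beside 15% of all genes. CPT20 replicate 2 was the highest of the 4 libraries relative to the median gene for 9 of the 10 members, against 33.9% of all genes. Without that library the median difference of the members was -0.16, and without CPT20 replicate 1 it was 0.59. With lists of equal length it was -0.20, and with −log10 q of at least 3 it was -0.03. The direction changed with that library and with the peaks admitted.

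Forward peaks made up more of the peaks in the windows of HNRNPA1, HNRNPD, HNRNPH1 and HNRNPM than of the whole list in all 4 libraries, and no member was below the list in all 4. The share of all genes above the list in all 4 was not computed. HNRNPD had 20 forward and 15 reverse peaks, 16 and 11, 18 and 8, and 13 and 7 in the order of the libraries above, and exceeded the forward share of the list by 9.06 to 19.2 percentage points. The 95% Wilson interval of the forward share held the share of the list in 38 of the 40 gene and library values, so the difference was mostly not detectable at these counts. The intervals that did not hold it were those of HNRNPC and HNRNPU in CPT10 replicate 1. The list of CPT10 replicate 1 itself held 591881 forward and 826744 reverse peaks, and the other lists were near balance. Every member was above the list in CPT10 replicate 1.

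Other genes of related function were set beside the 10. Of 18 further hnRNP and hnRNP-like genes, 13 were called higher than the typical gene and none lower, with a median log2 value of 0.91, and 7 had a persistent cluster. Among these were HNRNPDL (lowest −log10 q over the libraries 9.75), HNRNPA3 (8.48) and CIRBP, a cold-inducible RNA-binding protein (6.40), and these 3 clusters had their midpoints 1041 to 5240 bases downstream of the 5′ ends. Of the 12 SR splicing factor genes, 9 of 11 tested were called higher, with a median of 0.87, and 6 had a persistent cluster. The olfactory receptor genes of chromosome 11, which are silent in most tissues, had a median of -0.11 over the 78 tested of 177, and 4 of them were called higher and 5 lower.

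Sequence copies of the hnRNP genes were examined because reads from them can map to more than 1 place. The annotation holds 74 pseudogenes named after HNRNPA1, 9 after HNRNPC, 5 after HNRNPK, 3 or fewer after each of the others and none after HNRNPA2B1, and the authors kept reads with a mapping quality of at least 30. The windows of the 123 hnRNP pseudogenes had median densities of 0.0323 and 0.0342 at 10 min and 0.0299 and 0.0317 at 20 min, beside 0.0322, 0.0344, 0.0299 and 0.0318 over the olfactory receptor genes. Among the 123, 1 had a replicated site at 10 min. HNRNPA1, with the most copies, and HNRNPA2B1, with none, both had persistent clusters across their 5′ ends, and how far reads were lost at such copies was not tested.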

How the data were processed

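END-seq peak lists of 4 treated HCT116 libraries were analysed. Per the study's methods, reads were trimmed with Trim Galore, aligned to hg19 with Bowtie2, filtered with SAMtools (mapping quality of at least 30, duplicates kept) and split by strand. MACS2 was run by the authors on single libraries and strands, without pooling, at a q threshold of 0.05 and with untreated cells as input. Its estimate of local background was switched off (nolambda option). The deposited lists hold for each peak a score, a linear ratio (fold enrichment), a −log10 q-value and a −log10 p-value. The q-value described peaks and set the q thresholds. For the lists of equal length, each list was cut to the 286491 peaks with the highest −log10 p, with ties drawn at random. Read totals were not used here, so the depth behind each value is known only as the number of peaks of a list.

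Genes came from GENCODE release 44 mapped to GRCh37, the same build. Densities, log2 transformed with 0.5 peaks added and centred on the median gene, were fitted with limma 3.58.1 (R 4.3.3; empirical Bayes with trend) on the 4 libraries with a term for time, and p-values were Benjamini-Hochberg adjusted over all genes with a mean of at least 5 peaks. The fits were tested on simulated data. The study calls the 2 replicates biological and lists 2 experiments, each with untreated cells and both times, and p-values measure the spread between these libraries. All 10 members were named, other hnRNP genes by the lowest −log10 q of a persistent cluster, and sites by the same value. Some items that this rule selects are not reported here. The members and lists were chosen with earlier results of these data known. Alternatives were other q thresholds, list lengths, windows, filters, pseudocounts, gaps and overlaps, a replicate block, and leaving out each library.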

Additional observations from a re-analysis of the deposited data

How the results depend on the processing

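The calls of higher density held for all 10 members under each alternative but 2. These were −log10 q of at least 10, where 9 members were called, and leaving out CPT10 replicate 1, where 8 were called, and over the libraries left out in turn the count was 8 to 10. The replicate block left it at 10, and no member changed its call for density, time or side under it. Same-numbered libraries deviated together only weakly (correlation 0.24 over genes), and since the study's methods list 2 experiments without naming the replicate number of each, the block was kept as an alternative.

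The count of members higher on the transcribed side moved from 0 to 2 with −log10 q of at least 3 (beside 5.84% of genes tested). It was 1 of the 2 tested with −log10 q of at least 10 (beside 55.8%) and 3 with lists of equal length (beside 10.5%). The cause was not tested. The counts with a replicated site at 10 and 20 min fell to 2 and 3 with −log10 q of at least 10, beside 0.826% and 1.56% of all genes. The count with a persistent cluster fell to 3 and 1 with the 2 thresholds (beside 2.85% and 0.542%) and to 1 with 50% overlap of both sites (beside 1.04%). Leaving out a replicate was not possible for these counts, since a replicated site needs both.

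No member was called between 20 and 10 min in any alternative, while its log2 difference changed sign in 36 of the values recomputed. With lists of equal length it was -0.25 for HNRNPC, -0.013 for HNRNPM, -0.26 for HNRNPA2B1, -0.15 for HNRNPA1, -0.28 for HNRNPU and -0.30 for HNRNPK. With −log10 q of at least 3 it was -0.011 for HNRNPC, -0.084 for HNRNPM, -0.13 for HNRNPA2B1, -0.040 for HNRNPU and -0.20 for HNRNPK, and with at least 10 it was -0.11 for HNRNPA2B1, -0.80 for HNRNPU and -0.35 for HNRNPK. HNRNPM had -0.13 relative to the surrounding 500 kb and -0.057 over the gene body. HNRNPD turned positive, with 0.027 relative to the surroundings, 0.15 over the gene body, 0.0053 without the filter and 0.012 with summits in the window. Alternatives chosen after the data were seen gave HNRNPD 0.028 with the canonical transcript, 0.12 without centring and 0.15 by the share of the window covered, and HNRNPK -0.055 by that share. Without centring the median of all genes was 0.12 higher at 20 min. Over the libraries left out in turn the ranges were -0.25 to 0.72 for HNRNPA2B1, -0.28 to 0.46 for HNRNPC, -0.49 to 0.47 for HNRNPD, -0.067 to 0.77 for HNRNPF, -0.25 to 0.34 for HNRNPK, -0.092 to 0.13 for HNRNPM and -0.37 to 0.76 for HNRNPU. The cause was not tested.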
